A study of Homo sapiens with 3 samples.

Results

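Doubly marked sites outside annotated genes were H3K4me3 peaks that overlapped an H3K27ac peak and touched no gene. A site was an H3K4me3 peak on chromosomes 1 to 22 with a score of at least 100, overlapping by at least 1 bp an H3K27ac peak with a score of at least 100, lying outside the span of every gene in the RefSeq table, whatever its kind, and more than 2.5 kb from every gene end. There were 1014 such sites among 14516 doubly marked sites (7.0%, 95% interval 6.6 to 7.4) and among 32045 H3K4me3 peaks in the whole list. Of the H3K4me3 peaks outside genes that scored at least 100, 53% overlapped H3K27ac of at least 100, against 66.9% of such H3K4me3 peaks anywhere. The other doubly marked sites lay within 2.5 kb of a gene end (10588) or deeper inside gene spans (2914). The sites were chosen by the authors' H3K4me3 and H3K27ac scores and by position, so their scores, widths and overlaps are given as descriptions with no test.

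The chromatin came from HCC1599, an established human breast cancer line of the triple-negative class, which the series calls positive for MARCO-TST; the labels name no treatment. The line is known for its dependence on Notch signalling. The 3 samples were an H3K27ac library (antibody from Active Motif), an H3K4me3 library (antibody from Cell Signaling Technology) and an input library without antibody. None had a replicate, and no test was made. Ranges after a percentage are 95% Clopper-Pearson (exact) limits, which reflect counting error alone and take no account of the dependence between peaks that lie close together. Read depth is unknown from peak lists, and a place without a peak is one where none was called. Both marks lay at the same end of all 6 epithelial marker genes checked, among them EPCAM, CDH1 and KRT5. They did so at none of the 18 fibroblast, macrophage, lymphocyte and endothelial markers. Of 19126 protein-coding genes, 57.8% had both marks within 1 kb of the same end, so both marks at an epithelial marker are not specific to that class.

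H3K4me3 is laid down at transcription start sites and is usually broadest at active promoters, while H3K27ac marks active promoters and enhancers alike. Enhancers are known mainly for H3K4me1, yet very active ones can also carry H3K4me3, and many RNA genes start at places no annotation lists. Peak positions alone do not tell an unannotated start from a strong enhancer.

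The site that lay closest to a miRNA gene stood upstream of the miR-183 cluster on chromosome 7, 3 miRNAs that are read from 1 strand and are known for high levels in epithelial tumours and sensory cells. The site, chr7:129777716-129781978, was 4263 bp wide with an H3K4me3 score of 3100, and its H3K27ac peak, chr7:129778693-129781424, was 2732 bp wide with a score of 917. It lay 2701 bp from MIR183, 2946 bp from MIR96 and 7223 bp from MIR182, on the upstream side of all of them, since all are on the minus strand. It was the only H3K4me3 peak, and its H3K27ac peak the only one of that mark, within 20000 bp of MIR183. No peak of either mark lay on the hairpins. The mature sequences are shown because they are the annotated products nearest to this site, with the seed (bases 2 to 8) in capitals, from RefSeq (GRCh38.p14).
hsa-miR-183-5p: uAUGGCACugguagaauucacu
hsa-miR-96-5p: uUUGGCACuagcacauuuuugcu
hsa-miR-182-5p: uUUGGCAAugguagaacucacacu

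A second miRNA cluster, MIR23A, MIR27A and MIR24-2 on chromosome 19, differed in its surroundings. The site chr19:13845963-13848487, 2525 bp wide with a score of 1653, lay 9303 bp upstream of MIR23A and 3045 bp upstream of the start of the host gene MIR23AHG. Its H3K27ac peak, 14749 bp wide with a score of 3100, ran on over the host gene's start and the hairpins. The host gene's start lay under another H3K4me3 peak of 7636 bp, chr19:13836950-13844585, also at 3100. Between that peak and the site lay a weak one with a score of 50, chr19:13844648-13845855, less than 500 bp from each. The site may thus be a piece of the marked stretch over the host gene's start. In contrast to the miR-183 site, this one had 6 other H3K4me3 peaks within 20000 bp of MIR23A beside it, with scores from 31 to 3100. The 3p arms are printed in the same way. All 6 sequences had different seeds.
hsa-miR-23a-3p: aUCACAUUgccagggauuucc
hsa-miR-27a-3p: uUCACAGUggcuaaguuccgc
hsa-miR-24-3p: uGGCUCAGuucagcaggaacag

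In all, 18 miRNA genes of 1793 lay within 10 kb of 13 of the sites. Of the 17 with a known strand, 10 had the site on their upstream side. Besides those above, these 10 included MIR3916, 6525 bp from a site with a score of 3100, and MIR202, 9574 bp from a site near ADAM8. They are counted by gene and not by site. The hairpins of each cluster above share the same site and are all among the 10. On the downstream side, MIR4725 and MIR365B also share a site. A lean of the sites to the upstream side cannot be read from this count of genes.

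Sites outside genes had narrow H3K4me3 inside broad H3K27ac, the reverse of gene ends. Their median H3K4me3 width was 1693 bp (interquartile range 1281 to 2330, full range 512 to 10847), and the widest overlapping H3K27ac peak had a median width of 2909 bp (1823 to 4805). At gene ends the medians were 3522 bp for H3K4me3 and 2242 bp for H3K27ac. H3K27ac was the wider mark at 783 of the 1014 sites (77.2%, 74.5 to 79.8), at 71.9% of doubly marked sites inside gene spans and at 21.4% of those at gene ends. The H3K4me3 peak lay wholly under H3K27ac at 593 sites (58.5%, 55.4 to 61.5), at 54.9% inside gene spans and at 11.4% at gene ends. Within these 593 the H3K4me3 peak took a median of 43.6% of the H3K27ac peak's width, and its midpoint lay a median of 18.6% of the distance from centre to edge away from the H3K27ac midpoint. Only 36 sites (3.6%) overlapped more than 1 H3K27ac peak, against 6.5% inside gene spans and 11.7% at gene ends.

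**Figure D1:**
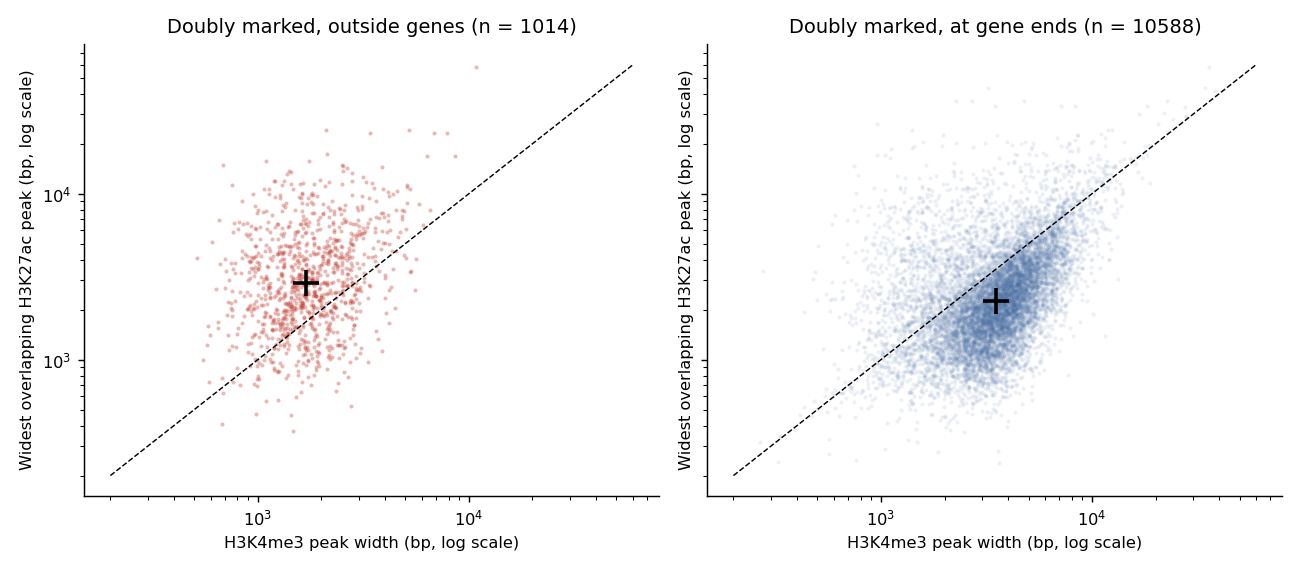
Width of each H3K4me3 peak (horizontal, bp, log scale) against the widest H3K27ac peak it overlaps (vertical, bp, log scale), for the 1014 sites outside genes and the 10588 doubly marked sites at gene ends. The dashed line marks equal widths and the cross the medians: outside genes most points lie above the line (77.2%), at gene ends most lie below it (21.4% above).

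Scores followed the same pattern. The median H3K4me3 score outside genes was 334 (interquartile range 166 to 1012), where gene ends had 3100, the value at which the authors' scores pile up. At this value or above stood 111 of the sites (10.9%) and 79.8% of those at gene ends. For H3K27ac the order was the opposite: the median score was 1202 outside genes and 826 at gene ends, and 29.6% against 16.6% stood at 3100 or above. Inside gene spans the values were close to those outside genes, with median scores of 335 for H3K4me3 and 1052 for H3K27ac.

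Median H3K4me3 width rose with its score, from 1327 bp in the lowest range below to 2920 bp in the highest, so the shape was also set out within ranges of the H3K4me3 score. H3K27ac was the wider mark at 93.9% of the 342 sites scoring 100 to below 200, at 87.2% of 273 sites up to 500, at 72.7% of 143 up to 1000 and at 54.5% of 145 up to 3100. At 3100 and above it was the wider one at 41 of 111 sites outside genes (36.9%, 28.0 to 46.6), 114 of 555 inside gene spans (20.5%, 17.3 to 24.1) and 1027 of 8445 at gene ends (12.2%, 11.5 to 12.9). These shares come from 1 library per mark and their difference was not tested. In the lowest range the 3 places differed little, from 89.1% at gene ends to 93.9% outside genes.

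**Figure D2:**
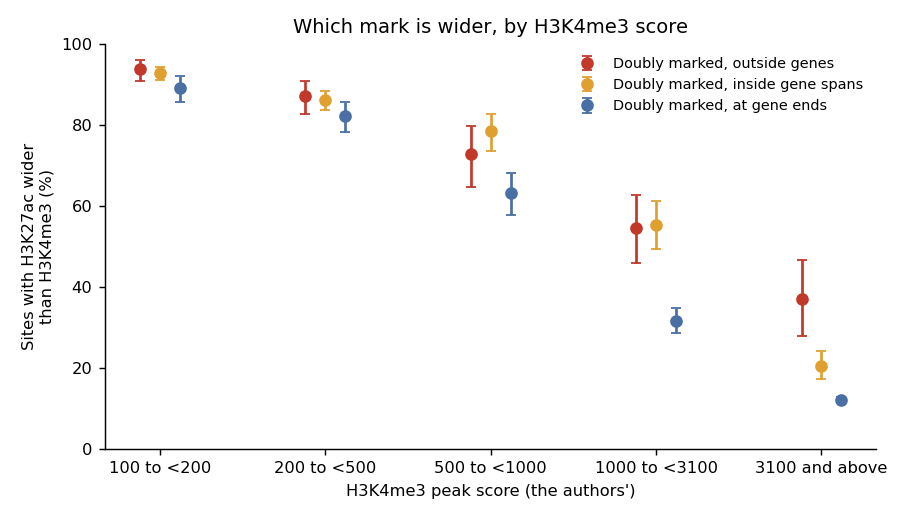
Share of doubly marked sites whose H3K27ac peak is wider than the H3K4me3 peak (vertical, %), by the authors' H3K4me3 score (horizontal, 5 ranges), for sites outside genes, inside gene spans and at gene ends. Bars are exact 95% binomial intervals; at 3100 and above the values are 36.9%, 20.5% and 12.2%.

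A small set had the shape seen at gene ends, with an H3K4me3 score of 3100 or above and H3K4me3 wider than H3K27ac. There were 70 of these (6.9% of the sites, 5.4 to 8.6). The widest lay between RAB2A and CHD7, a chromatin remodeller gene, at chr8:60650229-60655857, with 5629 bp of H3K4me3 over 4046 bp of H3K27ac. A site between ZNF689 and PRR14, chr16:30632601-30638177, was 5577 bp wide and held 2 H3K27ac peaks, the main one 2624 bp wide. On chromosome 19 a site between ZNF556 and ZNF57, both zinc finger genes, was 5315 bp wide over 3416 bp of H3K27ac. Between METTL2B and GARIN1A lay a site of 5275 bp over 3383 bp. The site between GLDC and KDM4C, a histone demethylase gene, was 4911 bp wide over 4286 bp of H3K27ac, and its nearest annotation was a pseudogene, RPL35AP20, 4068 bp away. One of 4002 bp over 3254 bp lay 3513 bp upstream of SOX4, a transcription factor gene of progenitor cells. The miR-183 site was also in this set, as was a site of 4366 bp between the T-box transcription factor genes TBX5 and TBX3.

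The 15 sites with the widest H3K4me3 held both shapes. By far the widest, 10847 bp with a score of 1836, was chr2:118804415-118815261, which lay 26909 bp from EN1, a homeobox gene of basal-like breast cancer, within the H3K27ac peak of 58355 bp that runs over EN1. Next came chr2:38440862-38449447 between ATL2 and HNRNPLL, 8586 bp wide at 3100, in 16976 bp of H3K27ac, 7288 bp from LINC01883. A pair of peaks of 7871 and 6799 bp beyond TRPS1 followed. A site near EDN1, encoding endothelin-1, measured 6513 bp in 7947 bp of H3K27ac, one near TMEM267 6328 bp in 16795 bp, and one near YWHAZ, a 14-3-3 gene, 6044 bp beside 6473 bp. The sites near CRABP2, a retinoic acid binding protein gene, and EPHB3, an ephrin receptor gene, measured 5283 and 5098 bp, both at 3100 and both under H3K27ac peaks wider than themselves. Of all 1014 sites, 45 (4.4%) reached 4000 bp and 115 (11.3%) were under 1000 bp.

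Few H3K27ac peaks under the sites reached a gene span, which the 2.5 kb distance in the rule itself makes less common. At 31 sites (3.1%, 2.1 to 4.3) an H3K27ac peak under the site also reached into a gene span, and at 17 or more it held the start of a gene. The 17 starts found, 8 of them of protein-coding genes, are a minimum, since the table of starts used here leaves out some genes, among them EN1, which lies wholly under the H3K27ac peak of its widest site. Among these starts were NOTCH1, the receptor gene, and HES1, its classical target, which encodes a repressor. At NOTCH1, the site chr9:136554428-136556524 was 2097 bp wide with an H3K4me3 score of 191, lay 8380 bp upstream of the start, and shared an H3K27ac peak of 24214 bp with it. At HES1, 1 H3K27ac peak of 14899 bp held the gene and a site on each side of it. The upstream site, of 2496 bp with a score of 1278, lay 3738 bp from the start. The downstream site, of 685 bp with a score of 108, lay 5510 bp from the start. Between these sites lay other H3K4me3 peaks with scores of 562 and 3100, the stronger one over the gene. Along this row of sites and peaks, each lay less than 500 bp from the next. Whether the HES1 sites are pieces of 1 marked stretch over the gene was not tested. At BCL6, a repressor gene, sites of 1096 and 1753 bp lay 3647 and 4849 bp upstream of the start in 15677 bp of H3K27ac. E2F2, TP53BP2, ZMYND8, LIPH and ABHD11 were the other protein-coding genes found through that table, each with its site or sites upstream.

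The 250 bases before the starts of HES1 and NOTCH1 are shown. Both are among the 8 protein-coding genes above whose start shares an H3K27ac peak with a site, and they were picked once their values were known. The bases are from RefSeq (GRCh38.p14), chr3:194135898-194136147 on the plus strand and chr9:136546049-136546298 on the minus strand. Capitals mark the word TGGGAA on either strand, the core bound by RBPJ, the DNA-binding partner of Notch.
HES1: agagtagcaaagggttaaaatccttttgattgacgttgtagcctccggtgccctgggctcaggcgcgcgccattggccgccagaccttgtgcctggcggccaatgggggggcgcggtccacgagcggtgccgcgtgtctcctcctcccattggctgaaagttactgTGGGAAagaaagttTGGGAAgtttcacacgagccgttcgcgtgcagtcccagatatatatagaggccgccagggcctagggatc
NOTCH1: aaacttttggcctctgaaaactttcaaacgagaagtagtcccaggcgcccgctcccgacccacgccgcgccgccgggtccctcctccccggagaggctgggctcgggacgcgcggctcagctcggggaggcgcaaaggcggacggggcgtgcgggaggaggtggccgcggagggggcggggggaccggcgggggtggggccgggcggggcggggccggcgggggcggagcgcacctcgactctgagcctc

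HES1 held the word at 2 places, beginning 84 and 70 bases before the start, and 3 copies of CCAAT on either strand. NOTCH1 held neither word, and the same window of BCL6, which is not printed, also held neither. TGGGAA occurs in 20.8% of the 35116 promoter windows of the same length and at 2 or more places in 1017 of them, and CCAAT in 32.0%. NOTCH1 had 33 CpG and HES1 18, against a median of 11 over all windows. A match is a stretch of letters and does not show binding. The sequence of the sites themselves was not analysed here.

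**Figure D3:**
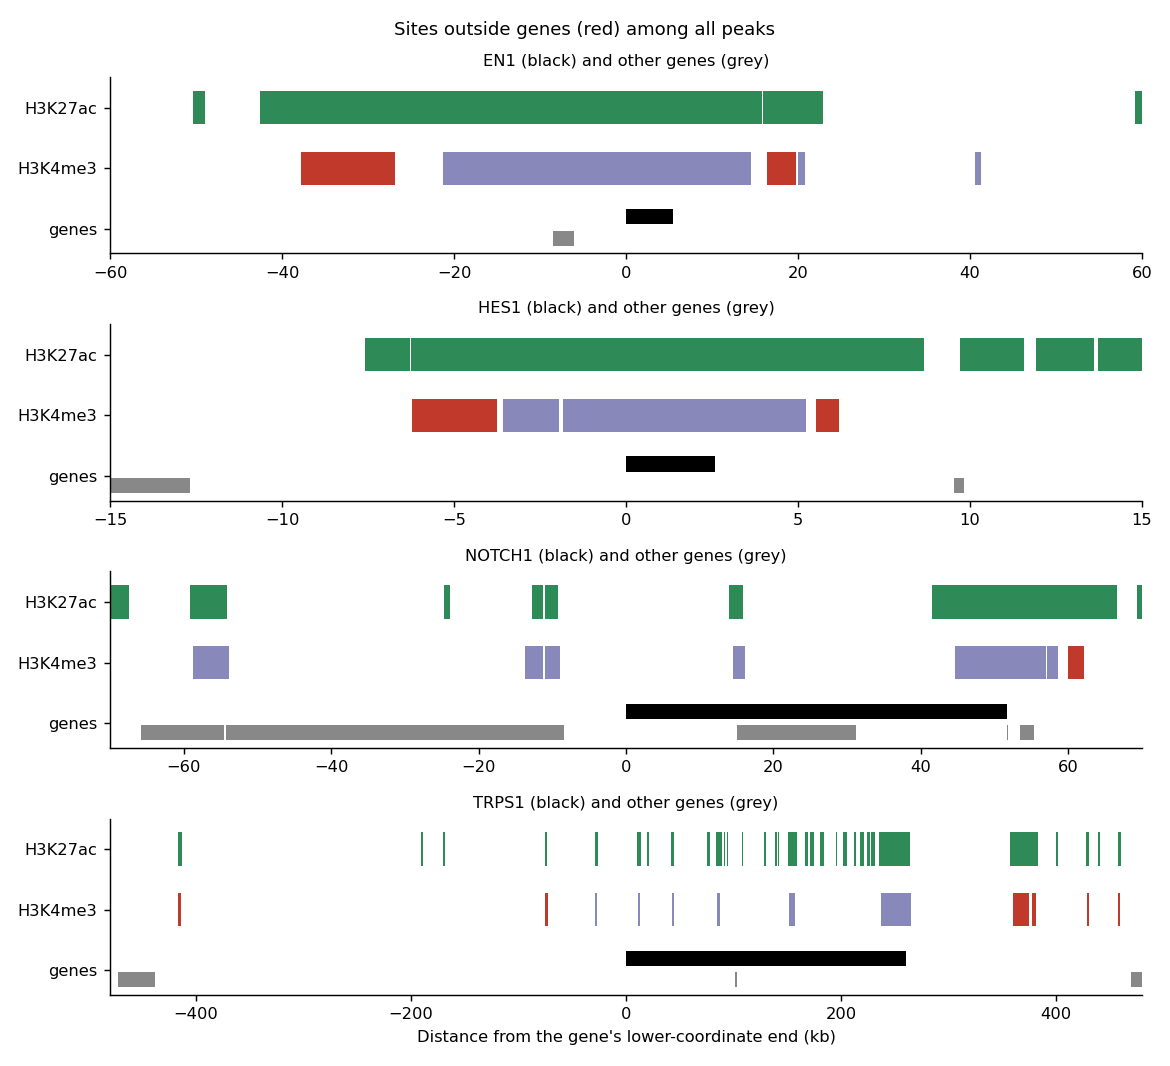
Peaks around EN1, HES1, NOTCH1 and TRPS1, by distance from the lower-coordinate end of the gene (horizontal, kb); each gene is black and drawn above other genes (grey), H3K27ac is green, H3K4me3 sites outside genes red and other H3K4me3 peaks violet. At HES1 a single H3K27ac peak of 14899 bp spans both red sites, while at TRPS1 3 red sites begin 99855 bp beyond the gene under a peak of their own, 23163 bp wide.

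Distances to genes were moderate. The median distance to the nearest gene of any kind was 10834 bp (interquartile range 5587 to 20698), with 218 sites (21.5%) up to 5 kb away, 260 (25.6%) from there to 10 kb, 467 (46.1%) to 50 kb, 56 to 100 kb and 13 beyond. H3K27ac peaks outside genes without H3K4me3 (3247 at the same score minimum) had a median of 13131 bp, and H3K4me3 peaks without H3K27ac (899) one of 11769 bp. Here and below, "without" means that no peak of the other mark scoring at least 100 overlapped, so weaker called peaks could overlap. The nearest gene was protein-coding at 389 sites (38.4%), a lncRNA at 365 (36.0%), a pseudogene at 223 (21.99%) and of another kind at 37. The nearest protein-coding gene lay a median of 24498 bp away, and more than 50 kb away at 307 sites (30.3%, 27.5 to 33.2), against 41.8% of H3K27ac peaks without H3K4me3 (40.1 to 43.5).

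The 10 sites farthest from any gene were mostly weak in H3K4me3. The farthest, chr8:78051968-78053646, lay 343525 bp from the nearest gene and had scores of 152 for H3K4me3 and 419 for H3K27ac. A site between MAT2B and TENM2 on chromosome 5 lay 143589 bp from a pseudogene and 1513177 bp from TENM2, with scores of 648 and 2806, and had no other peak of either mark within 50 kb. One between DPP10 and DDX18 on chromosome 2, 129701 bp from the nearest gene, had 3053 bp of H3K4me3 at 1891 over 1096 bp of H3K27ac at 265. The other 7 had H3K4me3 scores of 103 to 344.

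The nearest protein-coding gene carried both marks, as peaks of any score, within 1 kb of the same end at 740 sites (73.0%, 70.1 to 75.7). Of all 19126 protein-coding genes on these chromosomes, 57.8% did. For H3K27ac peaks outside genes without H3K4me3 the share was 65.1% (63.4 to 66.7), and for H3K4me3 peaks without H3K27ac it was 54.4% (51.1 to 57.7). A gene can be nearest to several sites, so these are shares of sites and not of genes. Where the strand was known, the nearest protein-coding gene faced the site with its start at 420 of 773 sites (54.3%, 50.7 to 57.9), and within 10 kb at 97 of 198 (49.0%, 41.8 to 56.2). The corresponding share for H3K27ac peaks without H3K4me3 was 54.8%.

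Of the sites, 338 (33.3%, 30.4 to 36.3) had another within 50 kb, and these formed 141 groups, of which 109 were pairs. Of the H3K27ac peaks without H3K4me3, 56.4% had another of their kind as near, and of the H3K4me3 peaks without H3K27ac 16.1%. The 3 kinds differ in number, which such shares depend on. At 218 sites (21.5%) another H3K4me3 peak of any score began less than 500 bp away, so some neighbours are pieces of 1 marked stretch. In 50 cases 1 H3K27ac peak held 2 sites, and in 6 cases it held 3.

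The largest groups held 5 or 6 sites. On chromosome 2, 6 sites spread over 79070 bp between TEX44 and PTMA, the prothymosin alpha gene, with H3K4me3 widths of 2221 to 2967 bp and scores of 952 to 3209. On chromosome 7, 6 sites over 85878 bp ran from ABHD11 past CLDN3 to CLDN4, claudin genes that encode tight junction proteins. The strongest of them, chr7:73799109-73804151, lay between the claudin genes, 5043 bp wide with a score of 3100, and from 15 to 23 other H3K27ac peaks lay within 50 kb of each site. On chromosome 1, 5 sites filled 27591 bp between H3-3A, a histone H3.3 gene, and ACBD3. Of these, 3 had scores of 3100 and widths of 3358 to 3995 bp. On chromosome 10, 5 sites lay around DDIT4, a stress-induced inhibitor of mTOR signalling, and on chromosome 17, 5 lay beside TOB1, an antiproliferative gene, 3 of them in 1 H3K27ac peak of 9871 bp.

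The group beyond TRPS1, a GATA-type transcription factor gene highly expressed in breast epithelium, had the most H3K4me3 of these 6 groups, 22055 bp in 5 sites over 99497 bp. Its first 3 sites, of 6799, 7871 and 3414 bp with scores of 3100, 3100 and 1223, lay in 1 H3K27ac peak, chr8:115768681-115791843, 23163 bp wide. The first 2 were only 15 bp apart. They began 99855 bp from TRPS1, and no more than 3 other H3K27ac peaks lay within 50 kb of any of these 3. The last 2 sites, 168412 and 197265 bp from TRPS1, had scores of 302 and 168. TRPS1 was the nearest protein-coding gene of 7 sites, more than any other gene.

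Lists of breast and signalling genes were set against the sites that lay between them and the next protein-coding gene on either side. Of all protein-coding genes, 7.59% flanked at least 1 site, and 16.6% flanked an H3K27ac peak outside genes without H3K4me3. The highest shares were 6 of 12 stress and AP-1 genes and 9 of 20 developmental regulators. Mesenchymal transition genes, at 1 of 10, stood near the share of all genes, and the other 5 lists lay between, from 20% to 35.7%. The lists had been chosen with results of these data known and were not tested. Genes with more open sequence beside them can flank more sites: the median distance to both neighbours together was 54751 bp over all genes but 607893 bp for the developmental regulators, 337129 bp for mesenchymal transition genes, 231256 bp for Notch and Wnt genes, 176972 bp for drivers and 127713 bp for stress and AP-1 genes. For luminal progenitor, luminal and basal epithelial genes it was 89011, 72610 and 72325 bp, with shares of 20%, 33.3% and 26.7%. The part of this distance in the counts was not tested.

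**Figure D4:**
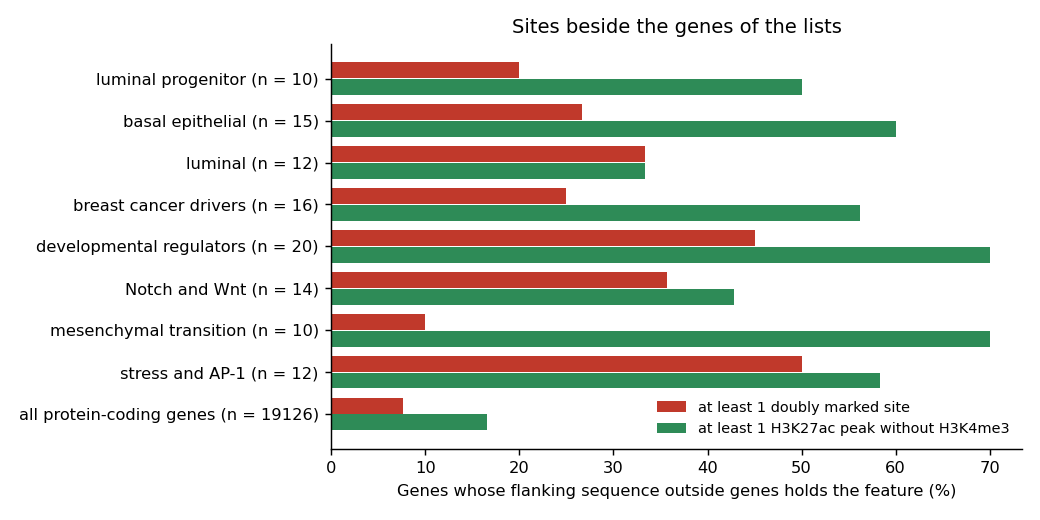
Share of genes in each list (horizontal, %) that flank at least 1 doubly marked site outside genes (red) or at least 1 H3K27ac peak outside genes without overlapping H3K4me3 of a score of at least 100 (green). All protein-coding genes stand at 7.59% and 16.6%; mesenchymal transition genes stand at 1 of 10 for the first and 7 of 10 for the second.

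Among developmental regulators, TFAP2C, an AP-2 factor gene of mammary epithelium, flanked 6 sites, the nearest 109736 bp away. The strongest of these, chr20:56801330-56805241, was 3912 bp wide with scores of 3100 for both marks. TFAP2C was the nearest protein-coding gene of 5 of the 6. GRHL2, an epithelial regulator, flanked 2, one of 4833 bp at a distance of 52497 bp and one of 2621 bp at 130499 bp, both under H3K27ac at 3100. SIX2, a homeobox gene, flanked a site of 3609 bp with H3K4me3 at 3100 and H3K27ac at 183, 158052 bp away. Besides SOX4 and TBX3, IRX1 and ID4 flanked 1 site each, 1412632 and 403394 bp away.

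Of the Notch and Wnt genes, 5 of 14 flanked sites. HEY2, a Notch target, had 3, the nearest 8711 bp away with an H3K4me3 score of 3100 and 1783 bp of width. The others lay 385049 and 431779 bp from HEY2 and had HDDC2 as their nearest protein-coding gene. FZD7, a Wnt receptor gene, also had 3, from 36395 to 66428 bp away, of which the nearest had scores of 2122 and 3100. WNT7B had 2, and AXIN2, a Wnt feedback gene, had 1 at 13608 bp. Among stress and AP-1 genes, JUN had 2 sites, 157238 and 228092 bp away, both with weak H3K4me3 (209 and 371) and strong H3K27ac (3233 and 3100). FOS had 1 at 18716 bp with scores of 873 and 397, IER2 1 at 11828 bp in 14418 bp of H3K27ac, and FOSL2 1 at 18962 bp. KLF4 had 1 at 147539 bp, which lay only 3643 bp from RAD23B. KLF6 had 2, at 100974 and 1029549 bp, the farther with AKR1E2 as its nearest protein-coding gene.

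Of 16 breast cancer driver genes, 4 flanked sites. ZNF217, a zinc finger gene of the 20q13 amplicon of breast cancer, flanked 8, all between it and BCAS1, from 45208 to 303154 bp away. Their H3K4me3 scores ran from 107 to 3100 and their H3K27ac scores from 2267 to 3100. ZNF217 was the nearest protein-coding gene of 5 of these 8. Near CCNE1, encoding cyclin E1, a site of 5050 bp had H3K4me3 at 3100 and H3K27ac at 547, 18284 bp away. FGFR2, a growth factor receptor gene, had 1 site, at scores of 102 and 274.

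Of the lineage genes, 4 of 12 luminal, 4 of 15 basal epithelial and 2 of 10 luminal progenitor genes flanked sites. KRT8, a luminal keratin gene, flanked 3 sites 17313 to 22704 bp away, with H3K4me3 scores of 124 to 229, all in 1 H3K27ac peak of 11986 bp at 3100. KRT18, its partner, had a site of 4575 bp at 3100 at a distance of 13068 bp, and KRT19 one of 3831 bp at 321, 7116 bp away. FOXC1, a forkhead gene of basal-like tumours, had 2, of 3915 and 3847 bp with scores of 1716 and 3082, 32937 and 13514 bp upstream. EN1 had a second site of 3397 bp, 10882 bp away on its other side. KIT, the receptor gene of luminal progenitors, had 1 at 31069 bp with scores of 348 and 3016, and XBP1 1 at 16976 bp with scores of 138 and 3100. The only mesenchymal transition gene was TWIST2, with 3 sites scoring 116 to 228 at least 62744 bp away. It was the nearest protein-coding gene of only 1 of them and did not itself carry both marks at the same end.

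Chromosomes differed in how many sites they held. Sites per Mb of length outside genes and their 2.5 kb flanks ran from 0.310 on chromosome 13 and 0.348 on chromosome 4 to 2.07 on chromosome 17 and 2.95 on chromosome 19, against 0.896 over all. Assembly gaps were counted as part of this length, here and below, which lowers the values of chromosomes with long gaps. The order of the lowest chromosomes may therefore reflect gaps. H3K27ac peaks without H3K4me3 ran the same way but less widely, from 1.53 per Mb on chromosome 13 to 4.25 on chromosome 19. As a share of a chromosome's doubly marked sites, the order changed: chromosome 20 (11.0%, 8.0 to 14.6) and chromosome 8 (10.8%, 8.3 to 13.6) stood highest, and chromosome 19 (4.3%, 3.2 to 5.7) lowest, while 26.1% of chromosome 19 lay outside genes and 40.3% of chromosome 20. Copy number was not analysed here, and its part in these shares was not tested.

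**Figure D5:**
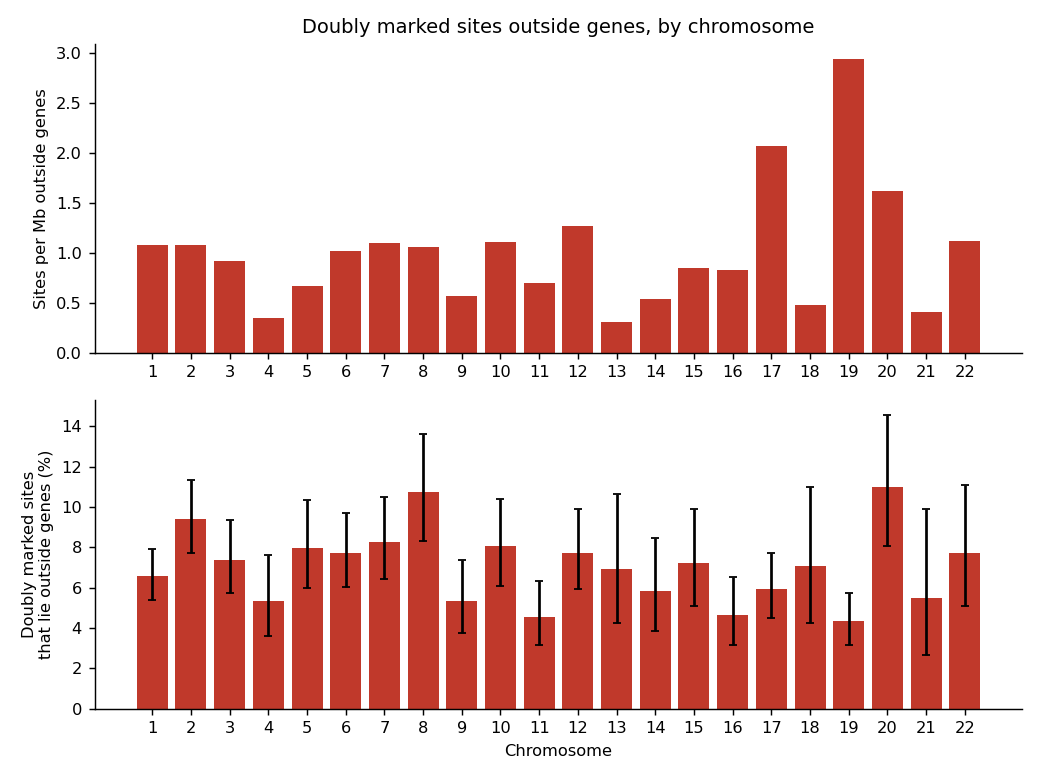
Doubly marked sites outside genes on each of chromosomes 1 to 22 (horizontal): per Mb of length outside genes and their flanks, assembly gaps included (upper panel), and as a share of all doubly marked sites of the chromosome (lower panel, %, with exact 95% binomial intervals). Chromosome 19 is highest per Mb (2.95) and lowest as a share (4.3%); chromosomes 20 and 8 have the highest shares.

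Around a site, the median number of other H3K27ac peaks of any score within 50 kb was 6 (interquartile range 3 to 9), and of other H3K4me3 peaks 2 (1 to 4). Doubly marked sites at gene ends had medians of 5 and 2, those inside gene spans 7 and 3, and H3K27ac peaks outside genes without H3K4me3 5 and 2.

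The limits of the rule pass through a continuous range. H3K4me3 scores of the 5 sites just inside ran from 100.2 to 100.68, and those of the 5 peaks just outside, otherwise alike, from 98.56 to 99.59. Between 100 and 110 stood 54 sites, and between 90 and 100 stood 59 such peaks. By distance, the 5 nearest sites lay 2538 to 2560 bp from a gene end, the 5 just too near 2457 to 2499 bp.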

How the data were processed

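Per the labels' protocols, chromatin of HCC1599 cells was cross-linked with formaldehyde, cut by sonication and micrococcal nuclease and immunoprecipitated, and libraries were made with a KAPA kit. Bowtie2, MACS 1.4 and hg38 are listed, per the submitters' processing notes; settings and the Bowtie2 version are not given in the sources used here. For each mark, the authors deposited a list of peak positions with a score of unstated scale, which was used only to rank and filter peaks. Positions are counted from 1. Gene spans were those of RefSeq on GRCh38.p14, in a table that holds neither exons nor introns; strands and starts came from its promoter table, which does not hold every gene. How the caller joined neighbouring peaks sets widths and counts.

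The members and lists were chosen with earlier results of these data known. Sites named were the 15 with the widest H3K4me3, the 10 with the widest H3K27ac, the 10 farthest from genes, the 5 largest groups (6 with ties), those at the rule's limits and those beside listed genes. The miRNA, promoter and gene-end-shaped sets and the group in the closing observations were picked once their values were known. Alternatives were other score minimums, overlaps, distances, gene kinds and merging of peaks. Some items are not reported here. Sequence content of the sites was not analysed here for want of a genome. Python 3.11.15, numpy 2.4.6, pandas 2.3.3, scipy 1.17.1, matplotlib 3.10.9 and bedtools 2.31.1 were used. On simulated data all 66 planted sites and 0 of 198 decoys were found, and the real count differed from that of bedtools by 0.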

Additional observations from a re-analysis of the deposited data

Results flagged for a closer look

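Chromosome X lay outside the rule. By the same limits it held 30 doubly marked sites outside genes, of 325 doubly marked sites there, a signal in peaks that the comparisons did not use. Their H3K4me3 peaks had a median width of 1613 bp and scores of 105 to 3100.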

How the results depend on the processing

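With 1 library per mark, no paired analysis was possible because there are no replicates, and no replicate could be left out. Of 50 values under 8 alternatives, 25 stayed within the interval of the reported value (a count within 1.5 times) and 25 moved. With a score minimum of 50 there were 1696 sites (9.3% of doubly marked sites), the median H3K4me3 width was 1401 bp, the nearest protein-coding gene had both marks at 69.99% and 41.0% had another site within 50 kb; with a minimum of 200 there were 588 sites (5.2%), 2046 bp and 25.5%. Both minimums left H3K27ac the wider mark at over 75% of sites. With 50% of the H3K4me3 peak covered, the share of doubly marked sites was 8.4% and H3K27ac was wider at 80.6%. At more than 1 kb from gene ends the share was 8.1% and the median distance to a gene 8603 bp; at more than 5 kb they were 5.5% and 14325 bp. With protein-coding genes alone, which lets lncRNA and other starts in, there were 2187 sites (15.1%), with a median width of 1909 bp, H3K27ac wider at 65.1%, a median distance of 26743 bp and 45.0% with another site within 50 kb. Merging H3K4me3 peaks less than 500 bp apart gave a median width of 1911 bp, H3K27ac wider at 74.1% and 25.1% with another site within 50 kb. Without merging, 20.1% of the sites as reported had another within 12500 bp. In every setting run, H3K27ac was the wider mark at most sites. Apart from settings that change which peaks or genes enter by construction, the cause was not tested.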

Other observations

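Of 10 groups of 4 sites, 1 is described here. On chromosome 15, 4 sites lay before CHD2, a chromatin remodeller gene. The first, of 5793 and 4841 bp, both had scores of 3100 for both marks and lay 77960 and 66465 bp from CHD2. The others, of 1786 and 2738 bp with H3K4me3 scores of 220 and 261, lay 54863 and 28484 bp away, and the last had the lncRNA gene CHASERR as its nearest gene.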
